A study of Mus musculus with 36 samples.

Results

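Glucose breakdown and the response to low oxygen were followed through 34 genes, chosen by symbol from the field's common knowledge of both processes. The choice was made with earlier results of these data known. All 34 were found in each of the 2 deposited tables, which hold 50509 gene symbols. They fall into 3 glucose transporters, 14 enzymes of glycolysis, 4 genes of lactate formation and transport, 3 kinases that set the flux, 4 genes of the oxygen sensor and 6 further targets of it. RNA came from mouse embryonic fibroblasts of embryonic days 12.5 to 13.5, bred to carry mCherry driven by the Myh6 promoter of heart muscle, and was sequenced in 36 libraries that form 12 groups of 3. GHMT cells were transduced with the cardiac transcription factors Gata4, Hand2, Mef2c and Tbx5, which turn part of a fibroblast culture into cardiomyocyte-like cells, and were kept with 1% DMSO, a polar solvent, or left untreated. Uninfected cells of the same strain were likewise kept with 1% DMSO or left untreated. Each of these 4 conditions was sampled at days 2, 7 and 21, and all groups shared a StemPro34 medium with FGF2, FGF10 and VEGF. Cells were lysed on the plate, so each library holds the whole mixed culture, and in such bulk RNA fewer cells of a type and less RNA per cell cannot be told apart. Whether the 3 replicates of each group were grown apart is not stated in the labels, and p-values therefore rest on a spread between samples that may be technical only.

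Glycolysis splits glucose to pyruvate in the cytosol, and lactate dehydrogenase turns pyruvate into lactate, which monocarboxylate transporters carry out of the cell. When oxygen is low, prolyl hydroxylases no longer mark the alpha subunits of the hypoxia-inducible factors (HIF) for breakdown, and HIF raises the transcription of most glycolytic genes at sites with the core ACGTG or GCGTG. Embryonic fibroblasts in culture rely strongly on glycolysis, while mature heart muscle burns mainly fatty acids and lactate and favours the muscle or heart forms of several of these enzymes.

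Values are TPM (transcript abundance per length, scaled so that each library sums to the same total). TPM keeps no read depth, so counting error is unknown and no intervals are given. Between 15776 and 18486 genes reached 1 TPM in a library. The fibroblast label was matched by its markers, with 8 of 8 at 1 TPM or more in every library. Of 12 cardiomyocyte markers, 10 reached 1 TPM in every GHMT library of days 7 and 21, and their summed level at day 21 was 4937, 4778 and 7376 TPM with DMSO, against 2947, 2529.9 and 2842 TPM untreated. In uninfected libraries that sum stayed between 6.77 and 12.1 TPM. GHMT DMSO day 21 replicate 3, GHMT DMSO day 7 replicate 1 and uninfected untreated day 21 replicate 1 stood apart, each as the library farthest from the others of its group, with mean correlations of 0.913, 0.931 and 0.942. The other 2 libraries of the first of these groups had 0.919 and 0.927, and the highest value of any library was 0.970. In all 6 GHMT groups the summed macrophage markers were highest in replicate 2 and lowest in replicate 3, for example 158, 352 and 56.1 TPM in replicates 1, 2 and 3 with DMSO at day 2. The 2 arms were deposited in separate tables, so levels of GHMT and uninfected cells are set side by side without a test.

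Most of the enzymes were abundant in every group. The 14 enzymes of glycolysis together held 3238, 3148 and 3762 TPM in GHMT DMSO libraries of day 21, against 3286, 3023 and 3211 TPM in untreated GHMT libraries. In uninfected cells of that day they held 2479, 2069 and 1951 TPM with DMSO and 2608, 1832 and 1966 TPM untreated. Gapdh, which makes the first energy-rich intermediate after glucose is split, Aldoa, the main aldolase, and Pkm, the pyruvate kinase of dividing cells and muscle, led the levels, and 1 of these 3 was the highest gene in each of the 12 groups. Gapdh averaged 652 ± 46.4 TPM in GHMT cells with DMSO and 616 ± 100.2 TPM in untreated GHMT cells at day 2 (SD, n = 3 each). At the low end stood Slc2a4, the insulin-responsive glucose transporter of muscle and fat (GLUT4), with group means of 0.133 to 0.898 TPM. It was the 1 gene under the level needed for testing in either table, which was 1 TPM in at least 3 libraries, so 33 genes were tested. Egln3, a prolyl hydroxylase that HIF itself induces, and in uninfected cells Aldoc, the brain form of aldolase, averaged close to 1 TPM, where log2(TPM + 1), the scale of all tests, understates change. Retrogene and pseudogene copies were low beside their parents (Pgk1-rs7 reached at most 10.2 TPM in a library), but values of Gapdh, Eno1, Pgk1, Ldha and Aldoa remain uncertain where reads could be shared with such copies.

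Promoter windows in RefSeq, 250 bases before to 50 bases after a start site on GRCm38.p6, were available for 30 of the 34 genes, in 43 windows, and not for Slc2a3, Slc2a4, Epas1 and Ndrg1. The cores ACGTG and GCGTG were searched on both strands, so that a palindromic CACGTG counts on each strand. ACGTG was in 58.1% of the 43 windows, against 19.6% of all 32851 windows, and GCGTG was in 58.1% against 32.4%. Either core was in 83.7% of the windows of these genes, against 43.8% of all windows. Because the genes were chosen for glycolysis and the response to low oxygen, these shares are no test of HIF control. Some windows of the same gene overlap, as for Eno1, Aldoa and Pfkm, and each was counted. A match is a description of the letters and not a binding site. Windows are shown for Hk2 and Ldhb, which were called in opposite directions with DMSO, and for Ldha and Slc16a1, which were called over time, with each core in capitals. Hk2 holds ACGTG 2 times, both on the opposite strand as CACGT, and Ldhb holds a single GCGTG. The Ldha window shown, the first by position of 2, holds ACGTG 5 times, 4 of them in 2 palindromes, and GCGTG 2 times. The other Ldha window holds ACGTG 0 times and GCGTG 2 times. Slc16a1 holds ACGTG 3 times and GCGTG 2 times.
Hk2, chr6:82774405-82774704, minus strand: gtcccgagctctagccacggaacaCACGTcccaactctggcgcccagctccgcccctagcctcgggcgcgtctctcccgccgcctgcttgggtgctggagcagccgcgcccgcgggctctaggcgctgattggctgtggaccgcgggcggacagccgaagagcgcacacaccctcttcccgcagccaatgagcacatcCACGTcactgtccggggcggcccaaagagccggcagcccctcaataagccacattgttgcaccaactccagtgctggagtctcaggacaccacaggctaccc
Ldhb, chr6:142507908-142508207, minus strand: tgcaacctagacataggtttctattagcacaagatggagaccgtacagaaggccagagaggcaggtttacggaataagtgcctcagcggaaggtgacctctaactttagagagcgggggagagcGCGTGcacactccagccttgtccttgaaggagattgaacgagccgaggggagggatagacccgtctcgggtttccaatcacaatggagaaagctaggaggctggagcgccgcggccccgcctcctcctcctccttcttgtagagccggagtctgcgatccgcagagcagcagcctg
Ldha, chr7:46845554-46845853, plus strand: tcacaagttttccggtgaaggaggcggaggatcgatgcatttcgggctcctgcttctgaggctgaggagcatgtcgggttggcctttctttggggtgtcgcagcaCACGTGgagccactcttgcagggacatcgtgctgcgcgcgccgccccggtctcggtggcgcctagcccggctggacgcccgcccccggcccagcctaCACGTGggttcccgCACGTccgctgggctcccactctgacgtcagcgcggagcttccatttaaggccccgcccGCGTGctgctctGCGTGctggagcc
Slc16a1, chr3:104638414-104638713, plus strand: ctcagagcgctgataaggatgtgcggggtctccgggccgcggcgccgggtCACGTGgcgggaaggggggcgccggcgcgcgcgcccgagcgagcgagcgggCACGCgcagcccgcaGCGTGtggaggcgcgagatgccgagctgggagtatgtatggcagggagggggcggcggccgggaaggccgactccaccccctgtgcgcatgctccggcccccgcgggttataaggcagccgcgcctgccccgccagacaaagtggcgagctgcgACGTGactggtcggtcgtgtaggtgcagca

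DMSO was compared with no treatment first in GHMT cells at day 21, the last day sampled. There 3 of the 33 genes were called (adjusted p under 0.05 over all 20618 genes tested, limma), beside 4.59% of all genes. Hk2 was lower, beside 2.98% of all genes, and Pfkm and Ldhb were higher, beside 1.62%. Hk2 is the hexokinase bound to mitochondria in growing and insulin-sensitive cells and traps glucose as glucose 6-phosphate. It had 6.35, 7.72 and 6.57 TPM in DMSO libraries, against 17.4, 15.2 and 12.6 TPM in untreated libraries. Every DMSO library lay below every untreated library, and the log2 change was -1.02 ± 0.25 (SE, adjusted p = 0.03197).

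Pfkm, the muscle form of phosphofructokinase, which commits sugar to glycolysis, moved the other way. Its DMSO libraries held 38.1, 36.7 and 51.3 TPM, against 25.9, 21.1 and 23.8 TPM in untreated libraries, without overlap. The change was 0.80 ± 0.16 (adjusted p = 0.0156). Ldhb, the heart form of lactate dehydrogenase, which works mainly from lactate to pyruvate, had 199.8, 184 and 192 TPM with DMSO and 95.6, 108 and 71.99 TPM untreated. Here too the groups were separate, with a change of 1.08 ± 0.23 (adjusted p = 0.0187). Markers of cell types moved in the same comparison. The summed cardiomyocyte markers given above were higher in each DMSO library than in each untreated one, and 3 of the 11 tested were called higher, among them Myh6, the cardiac myosin heavy chain (2.04 ± 0.35). The 8 fibroblast markers summed to 4483, 5346 and 5304 TPM with DMSO, against 6406, 6461 and 6654 TPM untreated, with 2 called lower, among them Thy1 (-1.41 ± 0.27). Of 5 smooth muscle markers 1 was called lower. Their part in the changes of Hk2, Pfkm and Ldhb was not tested.

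None of these 3 calls held with every library left out in turn. Hk2 lost its call without any 1 of the 3 untreated libraries or without DMSO replicate 2 or 3 (highest adjusted p = 0.106). Pfkm lost it without untreated replicate 2 or 3 or DMSO replicate 3, and Ldhb without untreated replicate 1 or 3 or DMSO replicate 3, with adjusted p up to 0.0754 and 0.0798. Counts of called genes among the 33 without 1 library were 1, 1 and 0 for untreated replicates 1, 2 and 3, and 6, 2 and 0 for DMSO replicates 1, 2 and 3. Over all genes these fits called 382, 437 and 347 without the untreated and 3138, 500 and 278 without the DMSO replicates, against 947 with all libraries. When the spread was taken from the 6 libraries of the comparison alone, 0 of the 33 were called and 8 had an unadjusted p under 0.05, and without the 3 libraries that stood apart 0 were called and 4 had one. The 33 genes had a median log2 change of 0.14, against -0.06 over all genes tested.

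Shares of Hk2, Pfkm and Ldhb among the forms of their enzymes are given for the same libraries. The 3 genes are those called in this comparison, so their shares are no further test of it. Ldhb made up 43.2, 39.3 and 36.6% of the summed Ldha and Ldhb TPM in GHMT DMSO libraries of day 21, against 25.3, 30.5 and 20.7% in untreated ones. Pfkm made up 27.3, 25.4 and 25.4% of the 3 phosphofructokinase genes with DMSO, against 20.4, 18.2 and 16.9% untreated. For Hk2 the share of the 2 hexokinase genes was 10.8, 10.5 and 8.21% with DMSO and 23.5, 24.1 and 20.7% untreated. None of the 3 shares overlapped between treatments at day 21 in GHMT cells, as was the case for the levels of the 3 genes themselves. Ldha itself, the muscle form that makes lactate, averaged 293 ± 36 TPM with DMSO and 267 ± 20.1 TPM untreated, with an adjusted p of 0.868.

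**Figure D1:**
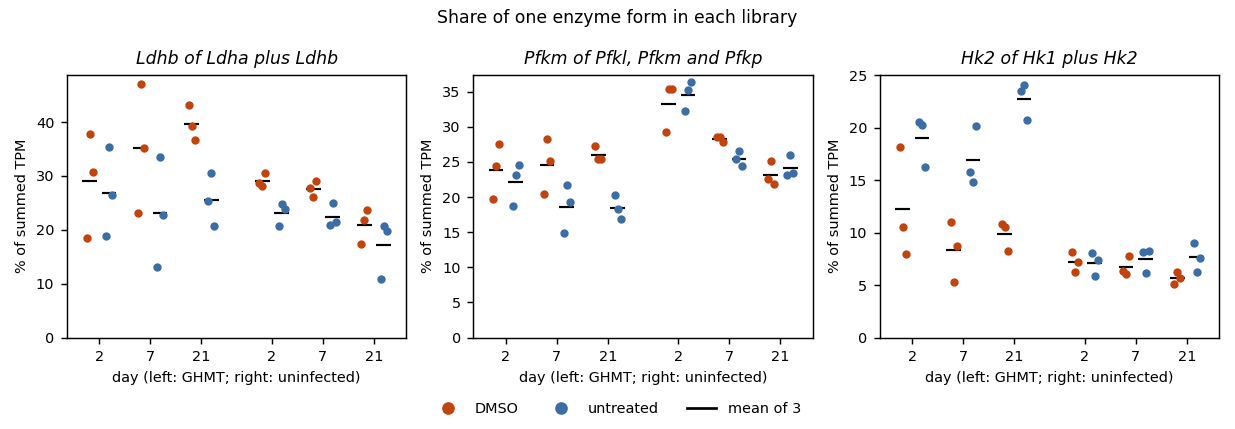
Share of Ldhb in Ldha plus Ldhb, of Pfkm in the 3 phosphofructokinase genes and of Hk2 in Hk1 plus Hk2, in percent of summed TPM, for each library (points, orange for DMSO and blue for untreated) by day, GHMT groups left and uninfected groups right, with lines at the mean of 3. In GHMT cells at day 21 the DMSO and untreated points do not overlap in any panel, and in uninfected cells at day 21 they overlap in every panel. That overlap is slight for Hk2, at 6.278% with DMSO against 6.275% untreated. The Ldhb points of uninfected cells are separate at day 2 (28.7, 28.1 and 30.5% with DMSO, 20.8, 24.8 and 23.9% untreated). They are also separate at day 7 (27.7, 26.1 and 29.0% with DMSO, 20.9, 25.0 and 21.5% untreated). Pfkm points of uninfected cells are separate at day 7 too (28.5, 28.6 and 27.9% with DMSO, 25.4, 26.5 and 24.4% untreated). Those of GHMT cells overlap at day 7. Whether shares differ between arms was not tested.

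At day 7 in GHMT cells 0 of the 33 genes were called by limma, beside 0.708% of all genes, and 6 had an unadjusted p under 0.05. The 2 with the smallest were again Ldhb and Pfkm. Ldhb had 148, 164 and 121 TPM with DMSO and 68.1, 90.05 and 59.3 TPM untreated, a difference of 0.99 ± 0.23 (adjusted p = 0.0684). With the replicate number as a block over all 18 GHMT libraries, Ldhb was called (adjusted p = 0.0206 by limma). That block gives each replicate number 1 effect shared by all days. Same-numbered libraries deviated together within day 7 (correlations 0.18 to 0.25), but not between days 2 and 21 (-0.035 to 0.011). Pairing day 7 alone, with the block and the 6 libraries of the comparison, called 0 of the 33 and 0 of all genes, and 11 of the 33 had an unadjusted p under 0.05. Pfkm had 36.6, 34.05 and 27.4 TPM with DMSO and 21.3, 22.2 and 15.8 TPM untreated, with a difference of 0.70 ± 0.16 (adjusted p = 0.0704). In both genes every DMSO library exceeded every untreated library. The cardiomyocyte markers of these libraries summed to 4395, 5047 and 3334 TPM with DMSO and 2201, 2008 and 1143 TPM untreated, with 3 of 11 called higher, and their part was not tested.

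At day 2 in GHMT cells, 0 of the 33 were called, beside 0.00485% of all genes, and 2 had an unadjusted p under 0.05. Hk2 had 6.98, 3.798 and 3.12 TPM with DMSO, against 8.36, 8.03 and 6.995 TPM untreated (log2 difference -0.70 ± 0.25, unadjusted p = 0.0125). The DMSO replicate 1 of Hk2 lay close to the untreated range and the other 2 well below it. Aldoc, an aldolase best known from brain, had 3.56, 7.68 and 7.999 TPM with DMSO and 3.31, 3.51 and 2.85 TPM untreated, without overlap (log2 difference 0.75 ± 0.30, unadjusted p = 0.0264). The DMSO effect at day 21 minus that at day 2 in GHMT cells was called for 0 of the 33 (limma), beside 0.0679% of all genes, and 2 had an unadjusted p under 0.05. These were Ldhb, with a difference of 0.98 ± 0.32, and Pfkm, with 0.59 ± 0.23 (unadjusted p = 0.00855 and 0.0226).

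**Figure D2:**
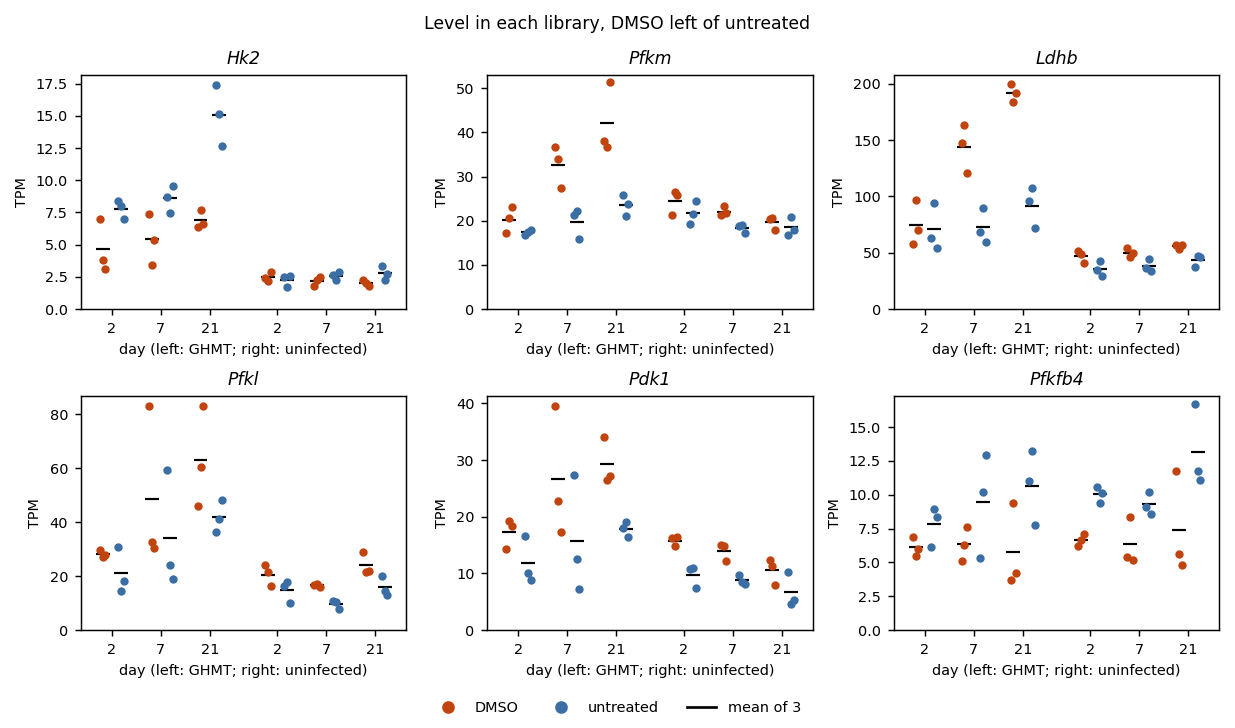
TPM of Hk2, Pfkm, Ldhb, Pfkl, Pdk1 and Pfkfb4 in each library (points) by day, DMSO in orange left of untreated in blue, GHMT groups left and uninfected groups right, with lines at the mean of 3. Hk2 in GHMT cells at day 21 averaged 6.88 TPM with DMSO and 15.1 TPM untreated, and Pfkfb4 was on average lower with DMSO in each of the 6 pairs.

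In uninfected cells DMSO gave no called gene of the 33 at any day (limma, 0 at each of days 2, 7 and 21), beside 0.285%, 1.69% and 2.36% of all 19979 genes tested. Between 4 and 7 had an unadjusted p under 0.05, 4 at day 2, 5 at day 7 and 7 at day 21. At day 2 these were led by Pdk1, the kinase that shuts pyruvate dehydrogenase and so keeps pyruvate from the mitochondrion, with 16.2, 14.8 and 16.4 TPM with DMSO and 10.7, 11 and 7.396 TPM untreated (log2 difference 0.67 ± 0.23, adjusted p = 0.2602). Ldhb followed, with 51.2, 49.02 and 41.3 TPM with DMSO and 34.8, 42.8 and 29.1 TPM untreated (difference 0.41 ± 0.14, adjusted p = 0.263). The Pdk1 libraries did not overlap, and those of Ldhb did.

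At day 7 in uninfected cells the smallest p belonged to Pfkl, the liver form of phosphofructokinase, with 16.7, 17.1 and 16.05 TPM with DMSO and 10.7, 10.5 and 7.93 TPM untreated (difference 0.73 ± 0.21, adjusted p = 0.0941). Ldhb had 54.2, 46.1 and 50.05 TPM with DMSO and 36.3, 44.03 and 33.9 TPM untreated (difference 0.39 ± 0.14, adjusted p = 0.177). In both genes all DMSO libraries lay above all untreated ones. At day 21 Pfkfb4, a bifunctional enzyme that sets the activator of phosphofructokinase, had 11.8, 5.63 and 4.795 TPM with DMSO and 16.7, 11.8 and 11.1 TPM untreated (difference -0.83 ± 0.24, adjusted p = 0.106). Car9, a membrane carbonic anhydrase and strict HIF target, had 1.01, 1.57 and 1.18 TPM with DMSO and 3.29, 2.65 and 1.95 TPM untreated (difference -0.68 ± 0.21, adjusted p = 0.123). The groups of Car9 were separate, while DMSO replicate 1 of Pfkfb4 reached into the untreated range. Without the untreated replicate 1 that stood apart, Pdk1 was called higher at day 21 (adjusted p = 0.0126; 0.1998 with all libraries), with 12.4, 11.3 and 7.89 TPM with DMSO and 10.2, 4.57 and 5.35 TPM untreated in all libraries. At day 21 the 8 fibroblast markers of uninfected cells summed to 6916, 6154 and 6147 TPM with DMSO and 8915, 9197 and 8599 TPM untreated, with 1 called lower. The 5 smooth muscle markers summed to 30.5, 34.8 and 25.3 TPM with DMSO and 123, 138 and 147 TPM untreated, with 4 called lower. The log2 difference was below 0 for all 9 macrophage markers tested (median -0.91) and above 0 for all 8 proliferation markers (median 0.53), single markers of both lists missing the threshold. The part of these markers in the differences above was not tested.

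The direction of the DMSO difference repeated across arms and days for some genes. These 6 comparisons share no library. The difference was above 0 in all 6 for 9 of the 33 genes (Egln1, Epas1, Ldhb, P4ha1, P4ha2, Pdk1, Pfkl, Pfkm and Pkm), beside 15.04% of the 18796 genes tested in both tables, and below 0 in all 6 for 3 (Eno1, Ndrg1 and Pfkfb4), beside 10.3%. With median ratio scaling or rescaling to protein-coding genes, Pkm, P4ha1, P4ha2, Eno1 and Ndrg1 no longer kept 1 direction throughout. Pdk1, Pfkl and Pfkfb4 are described further here because their differences were large on all days, a choice made after their values were seen. Pdk1 differences ran from 0.55 to 0.82 on the log2 scale, with 34.1, 26.5 and 27.2 TPM in DMSO and 18.02, 19.2 and 16.5 TPM in untreated GHMT libraries of day 21. Pfkl differences ran from 0.47 to 0.73, with 45.9, 60.5 and 82.98 TPM in DMSO and 36.4, 41.1 and 48.3 TPM in untreated GHMT libraries of day 21. For Pfkfb4 they ran from -0.85 to -0.30, with 3.74, 9.37 and 4.22 TPM with DMSO and 11.1, 13.2 and 7.75 TPM untreated in GHMT cells of day 21. At that day the DMSO libraries of Pdk1 lay above all untreated ones, while those of Pfkl and Pfkfb4 overlapped with untreated libraries. None of the 3 was called in any of the 6 comparisons (smallest adjusted p = 0.193 for Pdk1, 0.0941 for Pfkl and 0.106 for Pfkfb4).

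**Figure D3:**
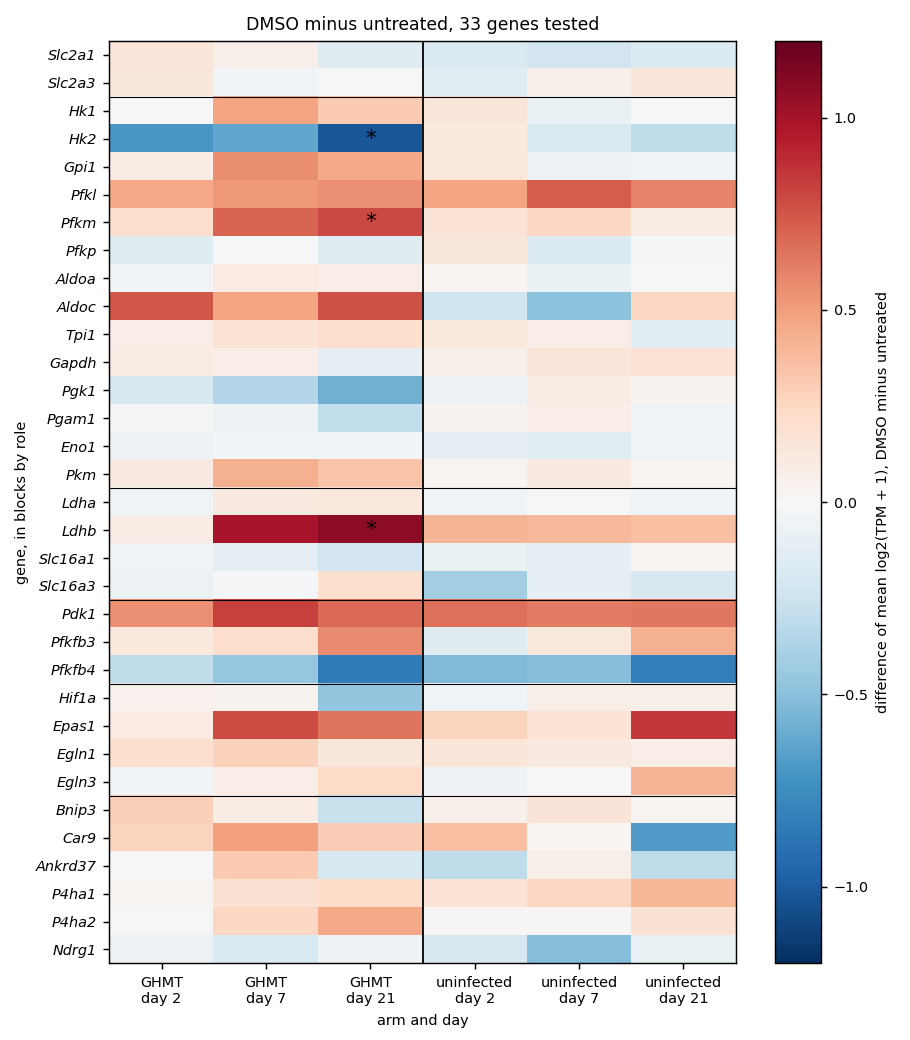
Difference of mean log2(TPM + 1), DMSO minus untreated, for the 33 tested genes (down the page, in blocks by role) in GHMT and uninfected cells at days 2, 7 and 21, red for higher and blue for lower with DMSO, with an asterisk where the gene was called. The 3 asterisks are Hk2, Pfkm and Ldhb in GHMT cells at day 21, and Pdk1, Pfkl and Pfkfb4 keep 1 colour across all 6 columns.

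Whether DMSO acted differently in the 2 arms was tested in 1 fit over all 36 libraries. The difference of the DMSO effects, GHMT minus uninfected, was called for 0 of the 33 genes at each of days 2, 7 and 21 (limma), beside 0.00898%, 0.117% and 0.588% of 22264 genes, and 2, 5 and 6 had an unadjusted p under 0.05. At day 21 the smallest belonged to Pfkm, with a difference of 0.71 ± 0.20 (adjusted p = 0.108), and to Ldhb, with 0.72 ± 0.27 (adjusted p = 0.263). Pfkm was called there with median ratio scaling (adjusted p = 0.0459). Day 7 was led by Gpi1, the isomerase that follows hexokinase, with 0.62 ± 0.21 (adjusted p = 0.432), and Hk1, the housekeeping hexokinase, with 0.56 ± 0.19 (adjusted p = 0.442). At day 2 Hk2 had -0.81 ± 0.29 and Aldoc 0.99 ± 0.38 (adjusted p = 1.0 for both). In uninfected cells the DMSO effect at day 21 minus that at day 2 was called for 0 of the 33, beside 0.035% of all genes, and 1 had an unadjusted p under 0.05, Car9 with -1.04 ± 0.30 (unadjusted p = 0.00345).

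More of these genes were called over time than with DMSO. At day 21 against day 2, 11 of the 33 were called higher and 0 lower in GHMT cells with DMSO, beside 21.4% of all genes higher and 16.2% lower (37.6% in all). In untreated GHMT cells 10 were higher and 0 lower, beside 17.9% and 6.7% (24.6% in all). In uninfected cells 9 were higher and 2 lower with DMSO, beside 4.86% and 10.2% (15.1% in all), and 6 were higher and 2 lower untreated, beside 5.16% and 5.84% (11.0% in all). By role, 4 or 5 of the 14 enzymes were called higher in each of the 4 comparisons. With the spread taken from the 6 libraries of a comparison alone, 10 were called in GHMT cells with DMSO, 13 untreated, 3 in uninfected cells with DMSO and 0 untreated (limma, 10 with an unadjusted p under 0.05). Whether these changes differed between arms was not tested.

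Scaling sets part of these counts. In untreated GHMT cells the median gene of the whole table was 0.20 higher at day 21, and 3692 genes were called higher against 1381 lower. Median ratio scaling moved that median to -0.02 and the split to 2171 higher against 3219 lower, and left 4 of the 33 genes called, all higher. With DMSO in GHMT cells the same scaling turned 4420 higher against 3335 lower into 3254 against 4963, and 8 of the 33 were then higher and 1 lower. In uninfected cells it turned 970 against 2041 into 1456 against 1326 with DMSO, and 1031 against 1166 untreated became 1365 against 1046 (8 higher and 1 lower of the 33 with DMSO, 7 and 1 untreated). The calls lost by this scaling were Aldoa, Car9 and Pfkp in GHMT cells with DMSO, and Gpi1, Hif1a, Hk1, Hk2, Pfkp and Slc2a1 untreated. In uninfected cells Pgam1 and Slc16a3 were lost with DMSO, and Hif1a, Pgam1 and Pkm untreated, where Egln1, Epas1 and Ndrg1 were gained. The median change of the 33 genes moved with this scaling from 0.47 to 0.18 in untreated GHMT cells. In GHMT cells with DMSO it moved from 0.59 to 0.37. Changes over time in untreated GHMT cells are therefore also given relative to the 0.20 shift. Such values remove less than median ratio scaling did for the 33 genes, and rises with DMSO are given without any such step.

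Epas1, the HIF-2 alpha subunit, which is known from endothelium and other stromal cells, had the largest change over time of the 33 genes in both GHMT comparisons and in uninfected cells with DMSO. It had 31.3, 61.04 and 40.98 TPM at day 21, against 1.59, 3.79 and 5.27 TPM at day 2, in GHMT cells with DMSO, a rise of 3.36 ± 0.46 on the log2 scale (adjusted p = 0.000113). In untreated GHMT cells it had 28.8, 34.7 and 19.6 TPM at day 21 and 1.17, 3.58 and 5.39 TPM at day 2, a rise of 2.81 ± 0.46, or 2.61 relative to the median gene (adjusted p = 0.000703). All day 21 libraries lay far above all day 2 libraries in both. Uninfected cells with DMSO had 47.9, 17.5 and 18.2 TPM at day 21 and 3.52, 5.801 and 11.5 TPM at day 2, a rise of 1.83 ± 0.39 (adjusted p = 0.005702). In untreated uninfected cells the values were 11.3, 15.5 and 13.7 TPM at day 21 and 3.83, 4.33 and 7.62 TPM at day 2, with a difference of 1.25 ± 0.39 that was not called (adjusted p = 0.0515). At day 7 it averaged 22.6 ± 8.37 TPM with DMSO and 12.8 ± 5.24 TPM untreated in GHMT cells, and 17.7 ± 3.03 TPM with DMSO and 15.6 ± 2.81 TPM untreated in uninfected cells. The mean of the middle day lay between those of the outer days in each GHMT condition.

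Hif1a, the HIF-1 alpha subunit that drives most glycolytic genes, was more abundant than Epas1 in every group. In GHMT cells with DMSO it averaged 89.8 ± 3.702, 129 ± 23.9 and 103 ± 30.2 TPM at days 2, 7 and 21, and in untreated GHMT cells 87.3 ± 11.5, 129 ± 44.2 and 139 ± 9.11 TPM. It was called higher at day 21 in untreated GHMT cells, by 0.67 ± 0.22 (0.47 relative to the median gene, adjusted p = 0.0411), and the call was lost without any 1 of the 6 libraries but untreated day 2 replicate 2. Uninfected cells averaged 79.2 ± 2.08, 65.6 ± 1.398 and 70.5 ± 1.96 TPM with DMSO at days 2, 7 and 21, and 62.3 ± 1.54 TPM untreated at day 7. Untreated uninfected cells had 64.3, 71.9 and 66.7 TPM at day 21, against 81.7, 86.3 and 78.2 TPM at day 2, and the gene fell by 0.28 on the log2 scale (SE 0.06103, adjusted p = 0.0107). That call was lost without day 2 replicate 2 (adjusted p = 0.0506). Epas1 made up 18.6, 39.9 and 34.1% of the summed alpha subunits in GHMT DMSO libraries of day 21, against 1.804, 3.89 and 5.57% at day 2.

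Egln1, the main prolyl hydroxylase that marks HIF alpha subunits for breakdown (PHD2), rose in GHMT cells. It had 27.7, 30.3 and 32.1 TPM at day 21 and 14.6, 13.4 and 16.1 TPM at day 2 with DMSO, a rise of 0.99 ± 0.19 (adjusted p = 0.00152). Untreated GHMT cells had 25.9, 26.8 and 29.03 TPM at day 21 and 13.7, 11.1 and 13.3 TPM at day 2, a rise of 1.05 ± 0.19, or 0.85 relative to the median gene (adjusted p = 0.00167). No libraries overlapped between days in either. In uninfected cells the Egln1 difference was 0.15 ± 0.0975 with DMSO and 0.22 ± 0.0975 untreated, and neither was called.

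**Figure D4:**
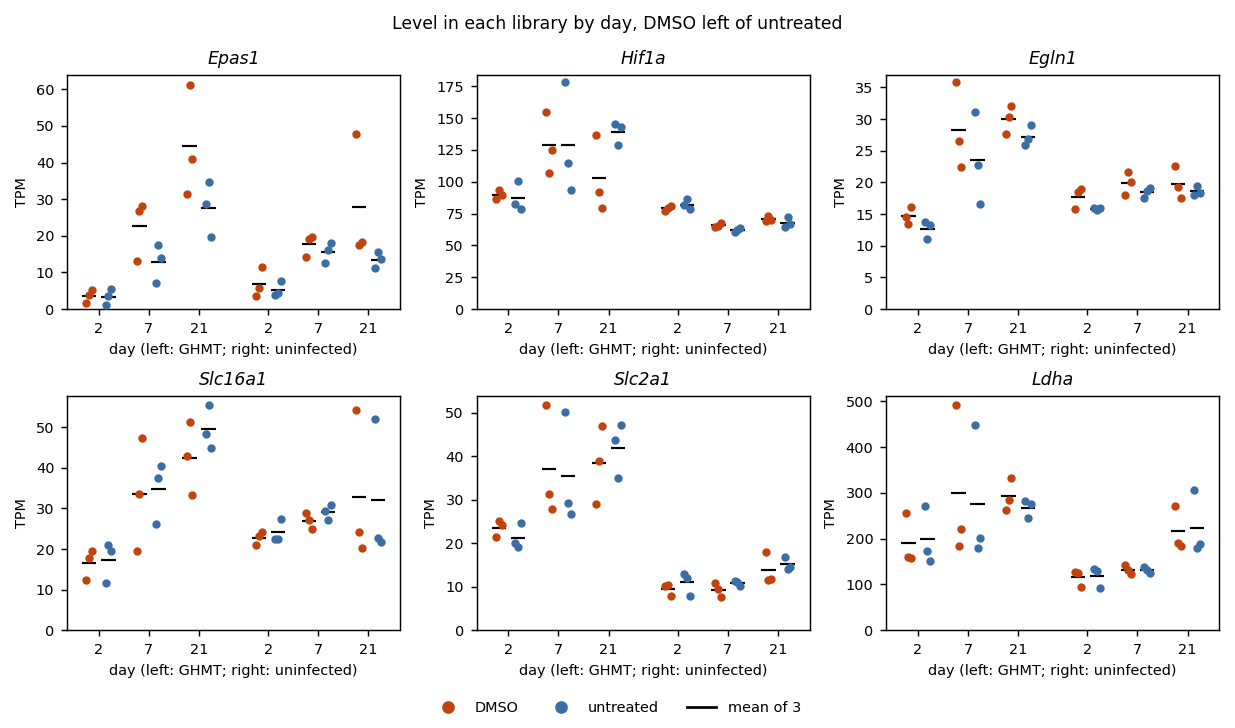
TPM of Epas1, Hif1a, Egln1, Slc16a1, Slc2a1 and Ldha in each library (points) by day, DMSO in orange left of untreated in blue, GHMT groups left and uninfected groups right, with lines at the mean of 3. In GHMT cells Epas1 averaged 3.55, 22.6 and 44.4 TPM with DMSO at days 2, 7 and 21, and single libraries of replicate 1 lie far above the others for Ldha and Slc2a1 at day 7.

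Among glucose transporters, Slc2a3 (GLUT3, a high-affinity form) was called higher in all 4 time comparisons. The groups compared share no library, but the comparisons of 1 arm share 1 estimate of the spread. With the spread of its own 6 libraries alone, the untreated uninfected comparison called 0 of the 33 genes. With DMSO, GHMT cells had 11.5, 12.5 and 6.96 TPM at day 21 and 4.85, 5.86 and 6.04 TPM at day 2 (rise of 0.75 ± 0.22), and uninfected cells had 8.98, 10.6 and 7.61 TPM at day 21 and 4.77, 4.01 and 4.01 TPM at day 2 (rise of 0.93 ± 0.18, adjusted p = 0.00324). Untreated GHMT cells had 12.6, 9.46 and 8.53 TPM at day 21 and 4.12, 5.91 and 5.07 TPM at day 2 (rise of 0.89 ± 0.22, 0.68 relative to the median gene, adjusted p = 0.00903). In untreated uninfected cells the rise was 0.65 ± 0.18 (adjusted p = 0.0316), and it was lost without any 1 of the 6 libraries but day 21 replicate 1. The call in GHMT cells with DMSO was lost without day 2 replicate 1 or day 21 replicate 2. With median ratio scaling all 4 were called.

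Slc2a1, the general glucose transporter (GLUT1) and a HIF target, was called in 1 of the 4 time comparisons. GHMT cells averaged 23.6 ± 1.89, 36.98 ± 12.9 and 38.4 ± 9.02 TPM at days 2, 7 and 21 with DMSO and 21.3 ± 3.01, 35.4 ± 12.9 and 41.99 ± 6.35 TPM untreated. Uninfected cells averaged 9.46 ± 1.29, 9.26 ± 1.62 and 13.7 ± 3.72 TPM with DMSO and 10.99 ± 2.76, 10.9 ± 0.649 and 15.2 ± 1.44 TPM untreated. It rose over time in untreated GHMT cells, by 0.94 ± 0.25 (0.74 relative to the median gene, adjusted p = 0.0156), a call lost without day 2 replicate 1 or 2 or day 21 replicate 1 or 3 and with median ratio scaling (adjusted p = 0.0602). The level difference between arms was not tested.

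Both hexokinases rose in untreated GHMT cells. Hk1 had 56.8, 47.8 and 48.3 TPM at day 21 and 32.4, 31.6 and 35.96 TPM at day 2, a rise of 0.60 ± 0.12, or 0.39 relative to the median gene (adjusted p = 0.00372). With DMSO it had 52.3, 65.8 and 73.5 TPM at day 21 and 31.5, 32.3 and 36.1 TPM at day 2, a rise of 0.91 ± 0.12 (adjusted p = 0.000122), without overlap. Hk2 rose by 0.86 ± 0.25 untreated (0.66 relative to the median gene, adjusted p = 0.0202), but lost the call without day 2 replicate 3 or day 21 replicate 1 or 2. Its means at days 2, 7 and 21 were 4.63 ± 2.06, 5.41 ± 1.999 and 6.88 ± 0.737 TPM with DMSO, and 7.79 ± 0.711, 8.59 ± 1.04 and 15.1 ± 2.397 TPM untreated. In uninfected cells Hk2 averaged 2.498 ± 0.355, 2.19 ± 0.394 and 2.02 ± 0.225 TPM with DMSO, and 2.25 ± 0.483, 2.59 ± 0.312 and 2.76 ± 0.583 TPM untreated.

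Further along the pathway Gpi1 and Pfkm rose in GHMT cells with DMSO. Gpi1 had 255, 333 and 352 TPM at day 21 and 173, 173 and 172 TPM at day 2, a rise of 0.84 ± 0.15 (adjusted p = 0.000883). Pfkm had the values at day 21 given above and 17.1, 20.6 and 23.03 TPM at day 2, a rise of 1.01 ± 0.16 (adjusted p = 0.000428). Day 21 libraries lay above day 2 libraries in both. In untreated GHMT cells Gpi1 rose by 0.48 ± 0.15 (0.27 relative to the median gene, adjusted p = 0.0338), a call lost without day 2 replicate 2 or 3 or day 21 replicate 1 or 2, while Pfkm differed by 0.42 ± 0.16 and was not called.

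Pfkp, the platelet form of phosphofructokinase, was called higher in all 4 time comparisons. In untreated cells it had 65.03, 53.5 and 68.7 TPM at day 21 and 41.9, 42.9 and 36.6 TPM at day 2 in the GHMT arm, a rise of 0.61 ± 0.15, or 0.41 relative to the median gene (adjusted p = 0.00809). The uninfected arm had 35.8, 44.7 and 45.6 TPM at day 21 and 24.3, 21.9 and 32.5 TPM at day 2, a rise of 0.67 ± 0.12 (adjusted p = 0.00354). No libraries overlapped between days in either arm. With DMSO the rises were 0.61 ± 0.15 in GHMT and 0.51 ± 0.12 in uninfected cells (adjusted p = 0.00499 and 0.01298), the second lost without day 2 replicate 2. With median ratio scaling both GHMT calls were lost (adjusted p = 0.08603 with DMSO and 0.191 untreated).

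Aldoa and the later enzymes Pgam1, which moves a phosphate within phosphoglycerate, and Pkm rose in uninfected cells under both treatments. Aldoa had 569, 425 and 427 TPM at day 21 and 327, 332 and 277 TPM at day 2 with DMSO (rise of 0.59 ± 0.15, adjusted p = 0.0172), and 584, 397 and 441 TPM at day 21 and 343, 326 and 256 TPM at day 2 untreated (rise of 0.61 ± 0.15, adjusted p = 0.0189). Pgam1 had 163, 124 and 137 TPM at day 21 and 104, 111 and 77.8 TPM at day 2 untreated (rise of 0.54 ± 0.13, adjusted p = 0.0191) and rose by 0.45 ± 0.13 with DMSO. The libraries of both genes were separate between days. Pkm rose by 0.63 ± 0.17 with DMSO and 0.63 ± 0.17 untreated. In untreated cells each of the 3 lost its call without day 2 replicate 3 or day 21 replicate 1, and Pkm also without day 21 replicate 3. With DMSO, Aldoa and Pkm were lost without day 2 replicate 3 or day 21 replicate 1, Pkm also without day 21 replicate 2, and Pgam1 without any 1 of the 6 libraries but day 2 replicate 2. With median ratio scaling Pgam1 lost its call under both treatments and Pkm untreated. The spread of own groups alone called 0 of the 33 genes in untreated uninfected cells. In GHMT cells Aldoa was called higher with DMSO (rise of 0.76 ± 0.25, adjusted p = 0.02805), a call lost without day 2 replicate 2 or 3 or day 21 replicate 2 or 3, and differed by 0.64 ± 0.25 untreated (adjusted p = 0.0756).

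Pgk1, a phosphoglycerate kinase and classical HIF target, was not called over time in any condition. GHMT cells averaged 196 ± 54.02, 159 ± 62.7 and 118 ± 42.7 TPM at days 2, 7 and 21 with DMSO and 223 ± 52.2, 206 ± 94.4 and 169 ± 10.2 TPM untreated. Its difference between days 21 and 2 with DMSO, -0.76 ± 0.34, had the opposite sign to most enzymes and was called lower with median ratio scaling (adjusted p = 0.0421; 0.0912 without it). Uninfected cells averaged 74.6 ± 12.5, 69.6 ± 3.69 and 98.8 ± 10.2 TPM with DMSO and 77.97 ± 9.303, 65.4 ± 1.98 and 98.97 ± 33.4 TPM untreated.

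Of the 2 lactate dehydrogenase genes, Ldhb was called in GHMT and Ldha in uninfected cells. Ldhb rose in GHMT cells with DMSO, with the day 21 values above and 58.01, 97.03 and 70.1 TPM at day 2 (rise of 1.37 ± 0.23, adjusted p = 0.000516), and differed by 0.39 ± 0.23 in untreated GHMT cells (adjusted p = 0.227). Ldha rose in uninfected cells, which had 272, 192 and 184 TPM at day 21 and 128, 126 and 94.05 TPM at day 2 with DMSO (rise of 0.88 ± 0.21, adjusted p = 0.0107). Untreated uninfected cells had 306, 179 and 188 TPM at day 21 and 133, 130.1 and 92.5 TPM at day 2 (rise of 0.89 ± 0.21, adjusted p = 0.0141), a call lost without day 2 replicate 3. Ldha libraries were separate between days in both, with replicate 1 the highest at day 21. At day 7 Ldha averaged 132 ± 9.49 TPM with DMSO and 131 ± 6.63 TPM untreated in uninfected cells. In GHMT cells its means at days 2, 7 and 21 were 191 ± 55.97, 299.6 ± 168 and 293 ± 36 TPM with DMSO and 198 ± 63.9, 276 ± 149.5 and 267 ± 20.1 TPM untreated, and no GHMT time difference of Ldha was called.

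The lactate transporter Slc16a1 was called in GHMT cells and Slc16a3 in uninfected cells. Slc16a1 (MCT1), which carries lactate in either direction, had 48.3, 55.6 and 44.96 TPM at day 21 and 11.5, 21.03 and 19.5 TPM at day 2 in untreated GHMT cells, a rise of 1.50 ± 0.30, or 1.30 relative to the median gene (adjusted p = 0.002697). With DMSO the rise was 1.31 ± 0.30 (adjusted p = 0.00393). The days did not overlap in either. Slc16a3 (MCT4), the export form of glycolytic cells and a HIF target, was low throughout. It had 2.71, 2.68 and 2.31 TPM at day 21 and 8.88, 5.66 and 4.4 TPM at day 2 in untreated uninfected cells, without overlap, and fell by 0.99 (SE 0.221, adjusted p = 0.0112). With DMSO it had 3.07, 1.41 and 2.08 TPM at day 21 and 4.58, 4.33 and 4.13 TPM at day 2, and it fell by 0.78 (SE 0.221, adjusted p = 0.0289), a call lost without any 1 of the 6 libraries but day 21 replicate 1. Its day 7 means in uninfected cells were 1.96 ± 0.386 TPM with DMSO and 2.22 ± 0.563 TPM untreated. GHMT means at days 2, 7 and 21 were 2.62 ± 0.775, 5.54 ± 5.66 and 4.17 ± 2.59 TPM with DMSO and 2.91 ± 1.44, 5.44 ± 5.22 and 3.18 ± 0.582 TPM untreated.

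Of the 3 flux kinases, Pdk1, Pfkfb3 and Pfkfb4, none was called over time in any of the 4 comparisons. Pdk1 averaged 17.3 ± 2.65, 26.6 ± 11.6 and 29.3 ± 4.22 TPM with DMSO and 11.8 ± 4.24, 15.7 ± 10.4 and 17.9 ± 1.35 TPM untreated at days 2, 7 and 21 in GHMT cells. In uninfected cells the means were 15.8 ± 0.886, 14.02 ± 1.53 and 10.5 ± 2.35 TPM with DMSO and 9.703 ± 2.003, 8.81 ± 0.753 and 6.696 ± 3.03 TPM untreated. The Pdk1 difference over time with DMSO was 0.73 ± 0.37 in GHMT and -0.56 ± 0.23 in uninfected cells.

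The remaining hypoxia targets gave few calls. Car9 fell in uninfected cells with DMSO, with 1.01, 1.57 and 1.18 TPM at day 21 and 4.34, 3.28 and 5.06 TPM at day 2, a change of -1.21 ± 0.21 (adjusted p = 0.00165) without overlap. In GHMT cells with DMSO it rose, by 0.90 ± 0.31 (adjusted p = 0.0368), a call lost without day 2 replicate 1 or 2 or day 21 replicate 2 or 3. P4ha1, a collagen prolyl hydroxylase subunit, rose by 0.57 ± 0.15 in uninfected cells with DMSO (adjusted p = 0.0205), lost without day 2 replicate 3 or day 21 replicate 1. Ndrg1, a stress-induced gene, rose there by 0.97 ± 0.29 (adjusted p = 0.0353), lost without any 1 of the 6 libraries but day 21 replicate 1. P4ha2, the mitophagy receptor Bnip3 and Ankrd37 were not called in any of the 4.

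Calls over time that held when any 1 library was left out numbered 8 of 11 in GHMT cells with DMSO, 6 of 10 untreated, 4 of 11 in uninfected cells with DMSO and 2 of 8 untreated. Other cell markers moved over the same interval. Of the 11 cardiomyocyte markers tested, 9 were called higher in both GHMT conditions, with sums of 4937, 4778 and 7376 TPM at day 21 and 721, 1276 and 727 TPM at day 2 with DMSO, and 2947, 2529.9 and 2842 TPM at day 21 and 767, 1144 and 456 TPM at day 2 untreated. Of 5 smooth muscle markers, 3 were called higher with DMSO and 2 untreated. All 8 proliferation markers were called lower in both GHMT conditions, with sums of 35.7, 46.3 and 19.02 TPM at day 21 and 269, 385 and 478 TPM at day 2 with DMSO. In uninfected cells 4 of 5 adipocyte markers were called higher under both treatments, with sums of 591, 207 and 218 TPM at day 21 and 32.7, 31.8 and 25.3 TPM at day 2 with DMSO. Their part in the changes of the 33 genes was not tested.

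Replicates of 1 group differed widely in these genes on some days. In GHMT cells at day 7, replicate 1 had the highest level in both the DMSO and the untreated group for 24 of the 33 genes, beside 24.2% of all genes tested. At day 2 this held for 16 of 33, beside 10.2%, and in uninfected cells at day 21 for 17 of 33, beside 19.7%. At GHMT day 21 it was replicate 3 for 12 of 33, beside 10.8%, and replicate 1 for 2 of 33, beside 13.7%. Ldha, Eno1 and Slc16a3 are given for GHMT day 7, a choice made after their values were seen. Ldha had 493, 184 and 222 TPM with DMSO and 448, 179 and 201 TPM untreated in replicates 1, 2 and 3. Eno1, the enolase that forms phosphoenolpyruvate, had 654, 265 and 240.3 TPM with DMSO and 672, 259 and 259 TPM untreated. Slc16a3 had 12.1, 2.09 and 2.45 TPM with DMSO and 11.5, 2.66 and 2.21 TPM untreated. For all 3 genes replicate 1 exceeded the sum of the other 2 replicates in both treatments. Epas1 ran against this, with replicate 1 the lowest of each group at 13.02, 26.7 and 28.2 TPM with DMSO and 7.07, 17.4 and 13.9 TPM untreated. Slc16a1, Pfkfb4 and Slc2a3 were likewise lowest in replicate 1 of both groups at GHMT day 7. In uninfected cells at day 21 this held for Ndrg1, P4ha2, Bnip3, Pfkfb3 and Hif1a.

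Marker sums of these libraries are given for comparison. At GHMT day 7 the smooth muscle markers summed to 2223, 1467 and 1217 TPM in DMSO and 3354, 1703 and 1257 TPM in untreated replicates 1, 2 and 3, highest in replicate 1 in both. Adipocyte markers were lowest in replicate 1 there, with 9.59, 35.1 and 51.2 TPM with DMSO and 18.9, 105 and 79.6 TPM untreated. Proliferation markers were also lowest in replicate 1 and highest in replicate 3 there, with 79.8, 127 and 253 TPM with DMSO and 44.9, 86.01 and 222 TPM untreated. At uninfected day 21 adipocyte markers were highest in replicate 1, with 591, 207 and 218 TPM with DMSO and 639, 138 and 156 TPM untreated. A further 30 hypoxia response genes not among the 34 summed to 3252, 1876 and 2268 TPM with DMSO and 3094, 1945 and 1779 TPM untreated at GHMT day 7, with replicate 1 highest. On the other 2 days on which many of the 33 genes were highest in replicate 1, the same sum was lowest in replicate 1. It was 1508, 1612 and 1753 TPM with DMSO and 1554, 1581 and 1691 TPM untreated at GHMT day 2, and 2442, 2527 and 2509 TPM with DMSO and 2545, 3319 and 3266 TPM untreated at uninfected day 21. The part of these markers in the replicate pattern was not tested.

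**Figure D5:**
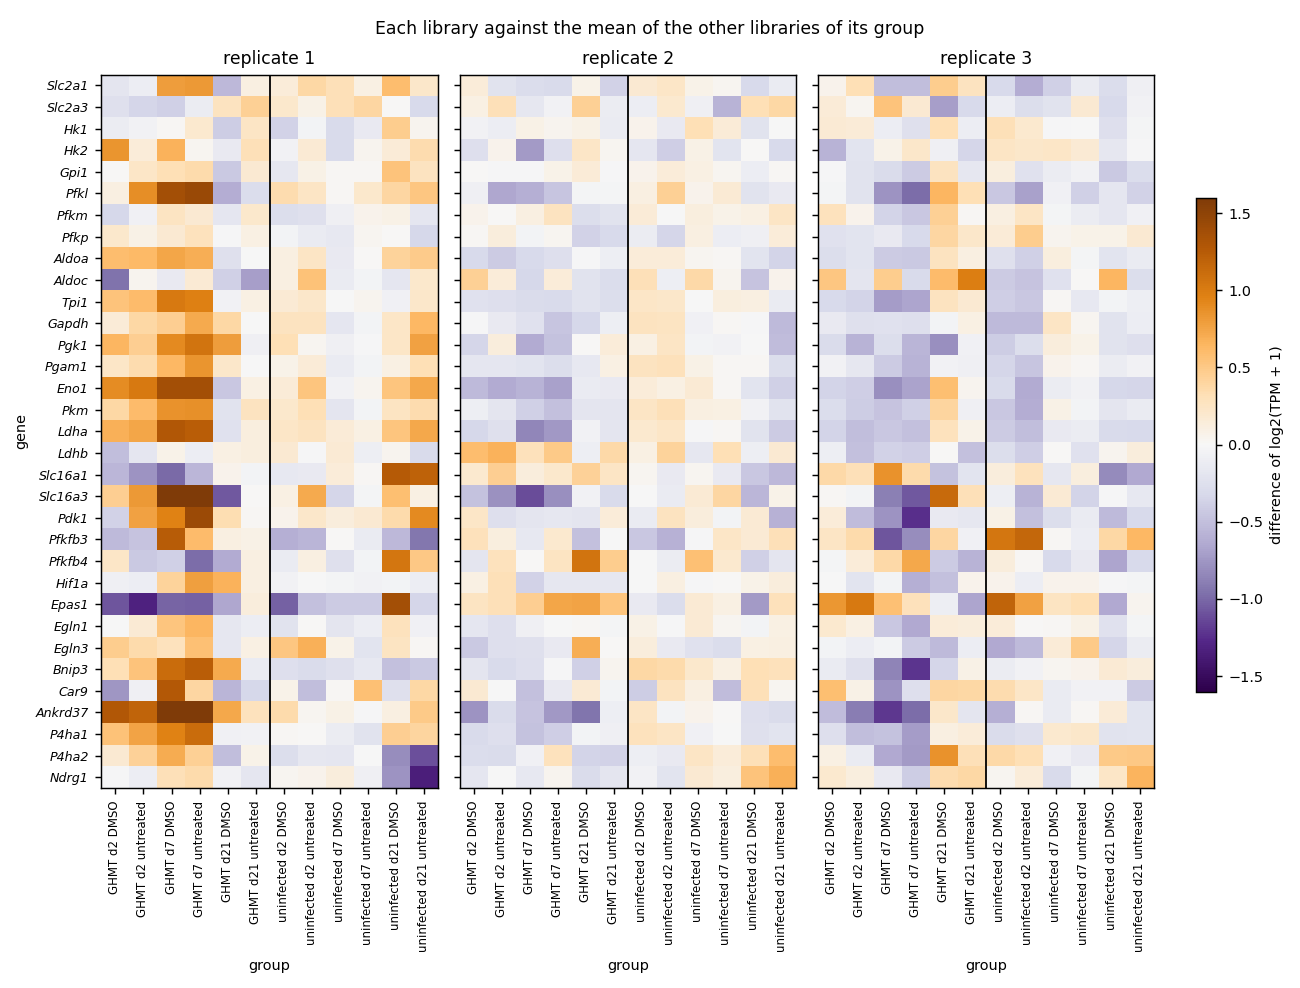
Level of each of the 33 tested genes (down the page) in each library against the mean of the other 2 libraries of its group, as a difference of log2(TPM + 1), orange for higher and purple for lower, in 1 panel per replicate number and 1 column per group, GHMT groups left of the line and DMSO left of untreated. Replicate 1 of GHMT day 7 is orange for most genes in both treatments, where 24 of the 33 genes were highest in both. Epas1, Slc16a1, Pfkfb4 and, more faintly, Slc2a3 are purple there.

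Genes of the same pathways outside the 34 were counted in 4 lists. For all 4, the shares of all genes called with DMSO were 0.00485%, 0.708% and 4.59% at days 2, 7 and 21 in GHMT cells. In uninfected cells they were 0.285%, 1.69% and 2.36%. Over time 21.4% of all genes were higher and 16.2% lower in GHMT cells with DMSO, and 17.9% and 6.7% untreated. Uninfected cells had 4.86% higher and 10.2% lower with DMSO, and 5.16% and 5.84% untreated. Of 32 other genes of glycolysis and pyruvate use, 24 were tested in GHMT and 23 in uninfected cells. With DMSO at GHMT day 21, 1 was called higher, Slc2a8, an intracellular glucose transporter (change of 0.73 ± 0.20), and 1 lower, Pdk3, a pyruvate dehydrogenase kinase (-0.60 ± 0.14). In uninfected cells Slc2a10, the transporter GLUT10, was lower at day 7 (-0.67 ± 0.14) and day 21 (-1.12 ± 0.14, adjusted p = 0.000496), when it had 2.43, 2.35 and 2.196 TPM with DMSO and 6.59, 6.29 and 5.77 TPM untreated. Bpgm, which makes bisphosphoglycerate, was higher at day 7 (0.69 ± 0.16). The other 3 DMSO comparisons of this list had no call. Over time 4 of its genes were higher and 3 lower in GHMT cells with DMSO, with a median log2 change of -0.14, where the 33 genes had 0.59 and all genes 0.09. Pgam2, the muscle phosphoglycerate mutase, was among the higher (1.46 ± 0.33) and Pfkfb1, a form of the bifunctional enzyme known from liver and muscle, among the lower (-1.28 ± 0.17). In untreated GHMT cells 6 were higher and 3 lower (median 0.20, against 0.47 for the 33 genes and 0.20 for all genes). In uninfected cells 1 was higher and 2 lower with DMSO and 3 were higher and 1 lower untreated, with Mpc1, a subunit of the mitochondrial pyruvate carrier, higher (0.82 ± 0.10 with DMSO) and Eno2, the neuronal enolase, lower (-0.59 ± 0.14 with DMSO).

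Of 30 other hypoxia response genes, 29 were tested in GHMT and 27 in uninfected cells, and 1 was called in the 6 DMSO comparisons. This was Vegfa, the endothelial growth factor and a HIF target, which was lower in uninfected cells at day 21, with 29.4, 22.2 and 20.9 TPM with DMSO and 36.6, 40.4 and 38.2 TPM untreated (change of -0.66 ± 0.13, adjusted p = 0.0181). Over time 8 of the 29 were higher and 2 lower in GHMT cells with DMSO, beside 21.4% and 16.2% of all genes. Untreated, 7 were higher and 1 lower, beside 17.9% and 6.7%. Bhlhe40, a repressor induced by HIF (2.37 ± 0.21 with DMSO), and Car12, a carbonic anhydrase (-2.13 ± 0.27), were among them. In uninfected cells 5 were higher and 3 lower with DMSO and 4 higher and 4 lower untreated, with Bhlhe40 higher (1.52 ± 0.15 with DMSO), Gbe1, the glycogen branching enzyme, higher (1.28 ± 0.18) and Vegfa lower (-1.17 ± 0.13). The list's median change over time in untreated GHMT cells was 0.44, against 0.20 over all genes, and in untreated uninfected cells 0.05 against -0.06.

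The HIF machinery (12 genes, all tested) had 1 call with DMSO, Hif1an, the asparagine hydroxylase that blocks HIF activity, which was higher in GHMT cells at day 21 (0.64 ± 0.17, adjusted p = 0.0466). Over time 5 were higher and 2 lower in GHMT cells with DMSO, beside 21.4% and 16.2% of all genes. Untreated, 3 were higher, beside 17.9%. With DMSO the higher genes were led by Hif1an (0.96 ± 0.17) and Arnt, the shared HIF beta subunit (0.74 ± 0.15). In uninfected cells 1 was lower with DMSO, Vhl, and 1 higher untreated, Rbx1, both parts of the ligase that degrades HIF. The pentose phosphate pathway (8 genes, all tested), which branches off at glucose 6-phosphate, had no call with DMSO in the 6 comparisons. Over time 3 of the 8 were higher in each GHMT condition, beside 21.4% of all genes with DMSO and 17.9% untreated. They were led by H6pd (1.00 ± 0.15 with DMSO and 0.98 ± 0.15 untreated). In uninfected cells 3 were higher with DMSO and 4 untreated, beside 4.86% and 5.16%. These were led by Taldo1 (0.78 ± 0.0906 with DMSO) and G6pdx, the first enzyme of the pathway (0.95 ± 0.10 untreated).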

How the data were processed

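Values were TPM estimated from TruSeq libraries and deposited by the authors as 1 table of 18 libraries per arm. The tools named are kallisto, Trimmomatic and FastQC, per the submitters' processing notes. Genome build, annotation and strand setting were not given in the sources used here. Entries that name no gene (97, 0.248 to 4.81% of TPM) were left out, and TPM of repeated symbols was summed over 92 repeats.

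Genes that reached 1 TPM in 3 or more of a table's libraries entered the tests, which used limma (version 3.58.1, R version 4.3.3) on log2(TPM + 1) with its trend option. Each table was fitted with 1 mean for each of 6 groups (12 residual degrees of freedom), and all 36 libraries together for differences between arms (24). The Benjamini-Hochberg adjustment ran over all genes tested of each of 15 comparisons, and an adjusted p under 0.05 made a call. TPM keeps no read depth, so errors are those between libraries, as standard deviations or limma's standard errors per gene.

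All 34 genes could be named. Library values were given for called genes, at most the 6 with the smallest adjusted p in a comparison, or for the 2 with the smallest unadjusted p where none was called, with further called genes described by change only or in full where their role was described. Hif1a, Epas1, Slc2a1, Hk2, Pgk1, Ldha, Slc16a3 and Pdk1 were given in every group. From each further list at most 2 called genes in each direction were named. The 34 genes, the further lists, the marker lists and the tests were chosen with earlier results of these data known.

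Replicate numbers come from the sample titles. They paired the libraries of GHMT days 2 and 7, where same-numbered DMSO and untreated libraries deviated together (correlation of deviations over genes 0.194 to 0.345 at day 2 and 0.183 to 0.249 at day 7). Alternatives were a pseudocount of 0.1, no filter, median ratio scaling, the replicate block, each comparison's own groups alone and leaving out each library. Rescaling to protein-coding genes (50.6 to 65.2% of TPM), leaving out the 3 libraries that stood apart, and the block with own groups were chosen after seeing the data.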

Additional observations from a re-analysis of the deposited data

Results flagged for a closer look

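For 5 genes every day 21 library lay on one side of every day 2 library in GHMT cells and on the other side in uninfected cells of the same treatment. The difference between arms was not tested for any of them. How many of all genes tested show this pattern was not counted, so the number 5 has no background beside it. With DMSO, Pfkm had a log2 change over time of 1.01 in GHMT cells and -0.30 in uninfected cells, Pdk1 0.73 and -0.56, and Car9 0.90 and -1.21. Pgk1 went the other way, with -0.76 in GHMT and 0.41 in uninfected cells with DMSO. In untreated cells Hif1a had 0.67 in GHMT and -0.28 in uninfected cells. Of these 10 changes, those of Pfkm, Car9 and Hif1a in GHMT cells and of Car9 and Hif1a in uninfected cells were called by limma. The calls of Car9 and Hif1a in GHMT cells and of Hif1a in uninfected cells were lost with median ratio scaling. They were also lost when certain single libraries were left out, so neither gene kept its calls in both arms.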

How the results depend on the processing

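Counts are of called genes among the 33, and no called result changed sign. With the replicate number as a block, 1 was called at GHMT day 7 (Ldhb), 1 at uninfected day 7 and 1 at day 21 (Pfkl both times, adjusted p = 0.0142 and 0.0337 by limma). Deviations of same-numbered uninfected libraries correlated at 0.117, 0.077 and 0.150 in replicates 1, 2 and 3 of day 7. At day 21 the correlations were 0.249, 0.025 and 0.239. Replicate 2 thus fell under 0.1, the smallest correlation that counted as pairing, on both days, while replicates 1 and 3 did not. The block changed no other count by over 1.5 times. In the fit on own groups alone, 0 were called for DMSO at GHMT day 21 (also 0 with the block, and 0 without the 3 libraries that stood apart), 3 over time in uninfected cells with DMSO and 0 untreated. Without those 3 libraries 1 was called for DMSO at uninfected day 21. Median ratio scaling left 4 over time in untreated GHMT cells and gave 1 for the difference between arms at day 21. With 1 library left out the counts were 0 to 6 for DMSO at GHMT day 21, 0 to 1 at uninfected day 21 and 0 to 2 for the arm difference at day 21. Over time they were 9 to 14 in GHMT cells with DMSO, 6 to 9 untreated, 5 to 9 in uninfected cells with DMSO and 4 to 7 untreated, and the remaining comparisons kept 0. Among 63 single-gene results, 63 kept their side of the threshold at a pseudocount of 0.1, 54 without the filter, 48 with median ratio scaling and 41 with own groups alone. Of all genes called with DMSO, the split of higher against lower moved with protein-coding rescaling to 798 against 600 at GHMT day 21 (333 against 614 before), to 419 against 275 at uninfected day 7 (129 against 208) and to 442 against 350 at day 21 (145 against 327). Over time in uninfected cells with DMSO it moved to 1383 against 1629 (970 against 2041), and median ratio scaling gave 15 against 35 for DMSO at uninfected day 2 (36 against 21). Apart from the values named, the cause of these moves was not tested. Read depth is unknown, and genes near 1 TPM (Egln3, Car9, Aldoc in uninfected cells) are limited by it.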
